A study of Mus musculus with 15 samples.

Results

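The genes described here are 10 cytotoxic effector genes of T cells and natural killer (NK) cells, Gzma, Gzmb, Gzmk, Prf1, Nkg7, Fasl, Ifng, Klrk1, Klrb1c and Ncr1. They were chosen by name and found by their Ensembl identifiers among the 46679 genes measured, and all 10 were present. RNA was sequenced from tissue of 5 groups of C57BL/6 mice with 3 mice per group. The naïve brain group carried no tumor. The other groups were intracranial tumors of CT2A, GL261, 005 or Mut3 cells, taken when the mice reached the humane end point. CT2A and GL261 are chemically induced mouse glioma lines, 005 came from a mouse brain in which H-ras and AKT were activated with 1 p53 allele lost, and Mut3 came from a mouse glioma model with Nf1 and p53 inactivated. Each line had been engineered to carry GFP and firefly luciferase (Fluc), so each tumor type stands for 1 line. Mice were 6 to 8 weeks old at implantation into the right hemisphere, with 100000 cells for CT2A, GL261 and 005 and 500000 cells for Mut3, so the number of cells implanted cannot be told apart from the line for Mut3. The authors report that CT2A mice reached the end point soonest and that Mut3 tumors progressed slowest. Time since implantation therefore also goes with the line. The tumor-bearing mice were perfused with 30 ml of PBS before dissection, whereas the handling of naïve brains beyond this general protocol is not given.

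Cytotoxic T cells and NK cells kill by 2 routes. In the granule route, perforin (Prf1) opens the way for granzymes, serine proteases that cleave proteins inside the target cell. Nkg7 is a granule membrane protein needed for release. In the receptor route, Fas ligand (Fasl) on the killer engages Fas on the target. Interferon gamma (Ifng) is the cytokine these cells release, which raises antigen presentation and chemokine genes in surrounding cells. Klrk1 encodes NKG2D, a receptor on NK cells and activated CD8 T cells that binds stress-induced ligands, Klrb1c encodes NK1.1, and Ncr1 encodes NKp46, a receptor largely restricted to NK cells and some innate lymphoid cells. Microglia and neurons are not a usual source of these transcripts.

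The genes lie on 6 chromosomes of the mouse genome, build GRCm38 (mm10), and all are protein coding. The 3 granzyme genes are Gzma (ENSMUSG00000023132, chr13:113093825-113100981), Gzmk (ENSMUSG00000042385, chr13:113171608-113225908), which lies in the same region of chromosome 13, and Gzmb (ENSMUSG00000015437, chr14:56258838-56262260), which lies in the cluster that also holds Gzmc to Gzmg. Prf1 (ENSMUSG00000037202, chr10:61297833-61304680) and Ifng (ENSMUSG00000055170, chr10:118441046-118445892) are on chromosome 10. The NK receptor genes Klrk1 (ENSMUSG00000030149, chr6:129610323-129623864) and Klrb1c (ENSMUSG00000030325, chr6:128778485-128789215) are in the NK gene complex of chromosome 6. Nkg7 (ENSMUSG00000004612, chr7:43437073-43438249), Ncr1 (ENSMUSG00000062524, chr7:4337724-4345164) and Fasl (ENSMUSG00000000817, chr1:161780689-161788495) complete the set. Of the 31-base stretches of their transcripts, 22.6% in Ifng were shared with the overlapping gene Gm49751 and 21.2% in Klrb1c with Gm44511, Klrb1b and Klrb1a, so the counts of Ifng and Klrb1c are less certain than those of the others, where at most 1.35% was shared. Gzmk overlaps Esm1 on the opposite strand, and the counting is not stated to have used strand.

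The 250 bases before the transcription start of each gene were searched on both strands for 3 binding motifs of transcription factors that act in cytotoxic lymphocytes. The sequences are those of RefSeq on GRCm38.p6, where the 10 genes have 11 such windows because Ncr1 has 2 starts. The RUNX core TGTGGTT was found in the windows of 4 genes, Gzma, Gzmb, Klrk1 and Ncr1, against 5.08% of 27025 genes with such windows (4.4% of 32851 windows). The T-box core AGGTGTGA was found in Nkg7 alone among these genes (1.12% of all windows). The STAT core TTCNNNGAA was found in Ifng and Nkg7 (7.02% of all windows). No match overlapped one of another motif. A match of letters does not show that a factor binds there. The windows of Gzma (chr13:113100982-113101231, minus strand), Gzmb (chr14:56262335-56262584, minus strand) and Klrk1 (chr6:129623865-129624114, minus strand) are shown because these genes were called over naïve brain in 3 tumor types below and hold the motif, with the RUNX core in capitals. In Gzma the core is on the opposite strand, so it reads AACCACA, at 51 bases before the start. In Gzmb it begins 34 bases and in Klrk1 129 bases before the start.
Gzma: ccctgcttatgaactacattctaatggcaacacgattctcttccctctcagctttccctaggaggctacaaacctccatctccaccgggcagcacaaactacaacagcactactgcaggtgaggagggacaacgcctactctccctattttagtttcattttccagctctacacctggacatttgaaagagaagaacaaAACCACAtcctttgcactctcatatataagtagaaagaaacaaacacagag
Gzmb: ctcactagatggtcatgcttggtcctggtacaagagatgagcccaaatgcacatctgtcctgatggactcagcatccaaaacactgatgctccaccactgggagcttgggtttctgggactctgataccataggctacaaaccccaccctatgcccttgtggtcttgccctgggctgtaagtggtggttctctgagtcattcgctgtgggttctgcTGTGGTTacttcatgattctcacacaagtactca
Klrk1: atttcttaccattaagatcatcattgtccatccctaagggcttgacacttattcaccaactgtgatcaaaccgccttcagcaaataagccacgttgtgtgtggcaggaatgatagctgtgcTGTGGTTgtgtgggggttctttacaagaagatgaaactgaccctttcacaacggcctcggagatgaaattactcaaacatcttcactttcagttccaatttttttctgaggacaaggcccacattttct

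Total estimated counts per library ranged from 3105119 to 5161132 in naïve brain and from 5380395 to 13130158 in the tumors. Levels of a gene are given as CPM, counts scaled to the size of each library, and levels of different genes are compared only in TPM, which also account for transcript length. Each difference is a log2 fold change from edgeR's quasi-likelihood test, and a gene was called at an adjusted p under 0.05 over the 17481 genes tested. The test gives no standard error (SE), so it was derived as the absolute log2 fold change over the square root of F. The intervals of log2 fold changes are this SE times a t quantile. In that test 9 of the 10 genes passed the filter on low counts and Ncr1 did not. The 005 tumors stood apart from each other. Summed over 5 neuron markers, 005 replicates 1, 2 and 3 had 450.3, 129 and 2968 CPM, beside 3327 to 5388 in naïve brain, 597 to 1476 in GL261, 145 to 814 in CT2A and 34.8 to 106 in Mut3. For that reason results on 005 are also given without single 005 libraries. The p-values compare 3 mice with 3 mice, and the comparisons with naïve brain share its libraries.

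CT2A, GL261 and 005 tumors held more RNA of 5 or 6 of the cytotoxic genes than naïve brain, whereas none of the genes was called in Mut3. In CT2A, 5 of the 10 genes rose over naïve brain (Gzma, Gzmb, Prf1, Nkg7 and Klrk1), where 20.3% of all genes tested were called higher and 21.7% lower. In GL261, 5 rose (Gzma, Gzmb, Nkg7, Klrk1 and Fasl), against 15.1% of all genes called higher and 8.45% lower. In 005, 6 rose (Gzma, Gzmb, Nkg7, Ifng, Klrk1 and Fasl), against 11.8% of all genes higher and 1.13% lower. In Mut3, 0 were called at an adjusted p under 0.05 in edgeR, 0 had an unadjusted p under 0.05, and DESeq2 also called 0, although 19.3% of all genes were called higher and 21% lower. None of the 10 genes was called lower in any of these comparisons. The median log2 fold change over the 9 tested genes was 4.54 in 005, 3.87 in GL261, 3.03 in CT2A and 0.59 in Mut3, beside medians over all genes of 0.01, −0.08, −0.04 and 0.11 in the same order. In bulk tissue, more cells of a type and more RNA per cell cannot be told apart. Leaving out 005 replicate 2 left 4 calls in 005 over naïve brain (Gzma, Gzmb, Nkg7 and Klrk1), and leaving out replicate 1 or 3 gave 7 and 8. Leaving out naïve replicate 3 left 3 calls in CT2A (Gzmb, Nkg7 and Klrk1). A fit of the 005 and naïve libraries alone left 2 (Gzmb and Nkg7), with an adjusted p of 0.0611 for Gzma and 0.0543 for Klrk1. Over all genes, that fit called 219 higher in 005 instead of 2055.

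**Figure D1:**
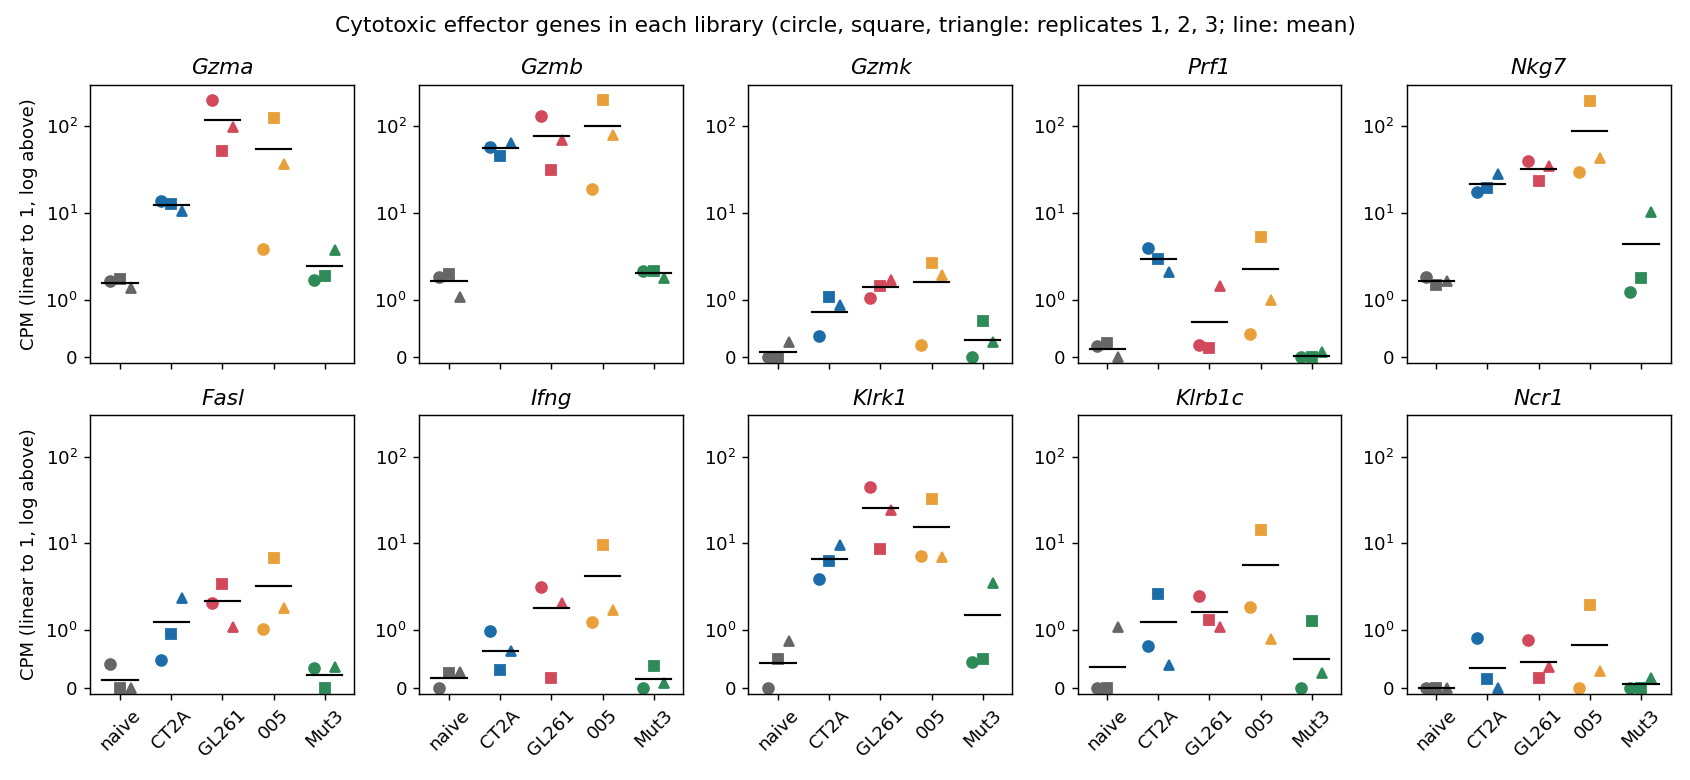
CPM of each of the 10 genes in the 15 libraries, on an axis that is linear up to 1 and logarithmic above, with 1 point per mouse and a line at the group mean. Gzma, Gzmb, Nkg7 and Klrk1 lay above all naïve brains in every CT2A, GL261 and 005 tumor, while Mut3 was not called for any gene.

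Gzmb, which encodes the aspartate-cleaving granzyme that activates caspases, was higher than naïve brain in CT2A, GL261 and 005. It was at 1.83, 1.99 and 1.08 CPM in the naïve brains and 57, 45.5 and 64.3 in the CT2A tumors. In GL261 it was at 131, 31.1 and 69.8, in 005 at 18.7, 201 and 80.03 and in Mut3 at 2.12, 2.13 and 1.75 CPM. Every CT2A, GL261 and 005 tumor was above every naïve brain and every Mut3 tumor, and the 3 tumor types overlapped with each other. Compared with naïve brain, Gzmb was higher in CT2A (log2 fold change 5.07, SE 0.78, adjusted p = 5.73e-04), in GL261 (log2 fold change 5.54, SE 0.79, adjusted p = 4.78e-04) and in 005 (log2 fold change 5.91, SE 0.80, adjusted p = 0.00177) by edgeR. These calls held under all 7 alternative settings and without each library in turn. In Mut3 the log2 fold change was 0.28 with a 95% interval of −1.36 to 1.91 (adjusted p = 0.796).

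Gzma, a granzyme of trypsin-like specificity, differed more between the tumors. It was at 1.63, 1.74 and 1.35 CPM in naïve brain, 13.9, 12.5 and 10.6 in CT2A and 202, 52.1 and 98.5 in GL261. The 005 tumors held 3.8, 123 and 36.3 and the Mut3 tumors 1.67, 1.88 and 3.77 CPM. CT2A varied little around its mean, GL261 lay wholly above CT2A, and 005 spanned from the level of Mut3 to that of GL261, with its lowest value in replicate 1 and its highest in replicate 2. Gzma rose over naïve brain in GL261 (log2 fold change 6.20, SE 1.01, adjusted p = 0.00103), in 005 (log2 fold change 5.09, SE 0.97, adjusted p = 0.00401) and in CT2A (log2 fold change 2.96, SE 0.93, adjusted p = 0.0205). The CT2A call was lost with log2 TPM in limma and without naïve replicate 1 or 3 (adjusted p of up to 0.199).

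Gzmk, a granzyme often used to mark memory and tissue CD8 T cells, was low throughout, at no more than 2.65 CPM. Its highest value was in 005 replicate 2, and the 3 GL261 tumors held 1.03, 1.45 and 1.69 CPM. Naïve brain held 1 count in all, so the GL261 level was 19 (95% interval 3.15 to 776) times that of naïve brain by counting error alone. Gzmk was called in none of the 10 comparisons in edgeR over all libraries, with an adjusted p of 0.056 for GL261 against naïve brain. Other settings did call it in GL261 over naïve brain. These were the DESeq2 Wald test, a fit of these groups alone, a replicate block and limma on log2(TPM + 1) or log2(TPM + 0.1). Both limma settings also called Gzmk in 005 over naïve brain.

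The order of the groups by mean level of Prf1, the perforin gene, differed from that of Gzma, Gzmb and Gzmk. Prf1 was at 0.204, 0.249 and 0 CPM in naïve brain and 0, 0 and 0.0877 in Mut3. It was at 3.9, 2.94 and 2.06 CPM in CT2A, 0.207, 0.161 and 1.45 in GL261 and 0.411, 5.3 and 0.994 in 005. All CT2A tumors were above all GL261 tumors, 2 of the GL261 tumors were at the level of naïve brain, and 005 overlapped with both. Prf1 rose over naïve brain in CT2A, where 67 counts stood against 2, a ratio of 18.9 (95% interval 5.03 to 159) by counting error, with an adjusted p of 0.018 in edgeR. This call was lost without naïve replicate 3 (adjusted p = 0.0554). GL261 was below CT2A by a log2 fold change of −2.18 (SE 1.00), which did not pass the test (adjusted p = 0.202). In TPM, Gzmb was at 8.29 ± 1.8 and Prf1 at 0.45 ± 0.196 in CT2A, and Gzmb at 12.4 ± 6.5 and Prf1 at 0.108 ± 0.139 in GL261 (mean ± SD, n = 3).

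Nkg7 had the highest TPM of the 10 genes in every library except GL261 replicates 1 and 3, where Gzma was higher. In CPM it was at 1.83, 1.49 and 1.62 in naïve brain, 17.3, 19.4 and 28.5 in CT2A and 39.5, 23.1 and 35.1 in GL261. It was at 29.3, 195 and 42.5 CPM in 005 and 1.23, 1.76 and 10.2 in Mut3. The highest value was again in 005 replicate 2, and Mut3 replicate 3 stood above the other Mut3 tumors. Nkg7 rose over naïve brain in CT2A (log2 fold change 3.70, SE 0.86, adjusted p = 0.00487), GL261 (log2 fold change 4.29, SE 0.87, adjusted p = 0.00396) and 005 (log2 fold change 5.73, SE 0.91, adjusted p = 0.00189), and these calls held under all 7 alternatives and without each library in turn. In TPM summed over the 10 genes, Nkg7 made up between 25.6% (GL261 replicate 1) and 79.3% (Mut3 replicate 3), and Prf1 never more than 2.5%.

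**Figure D2:**
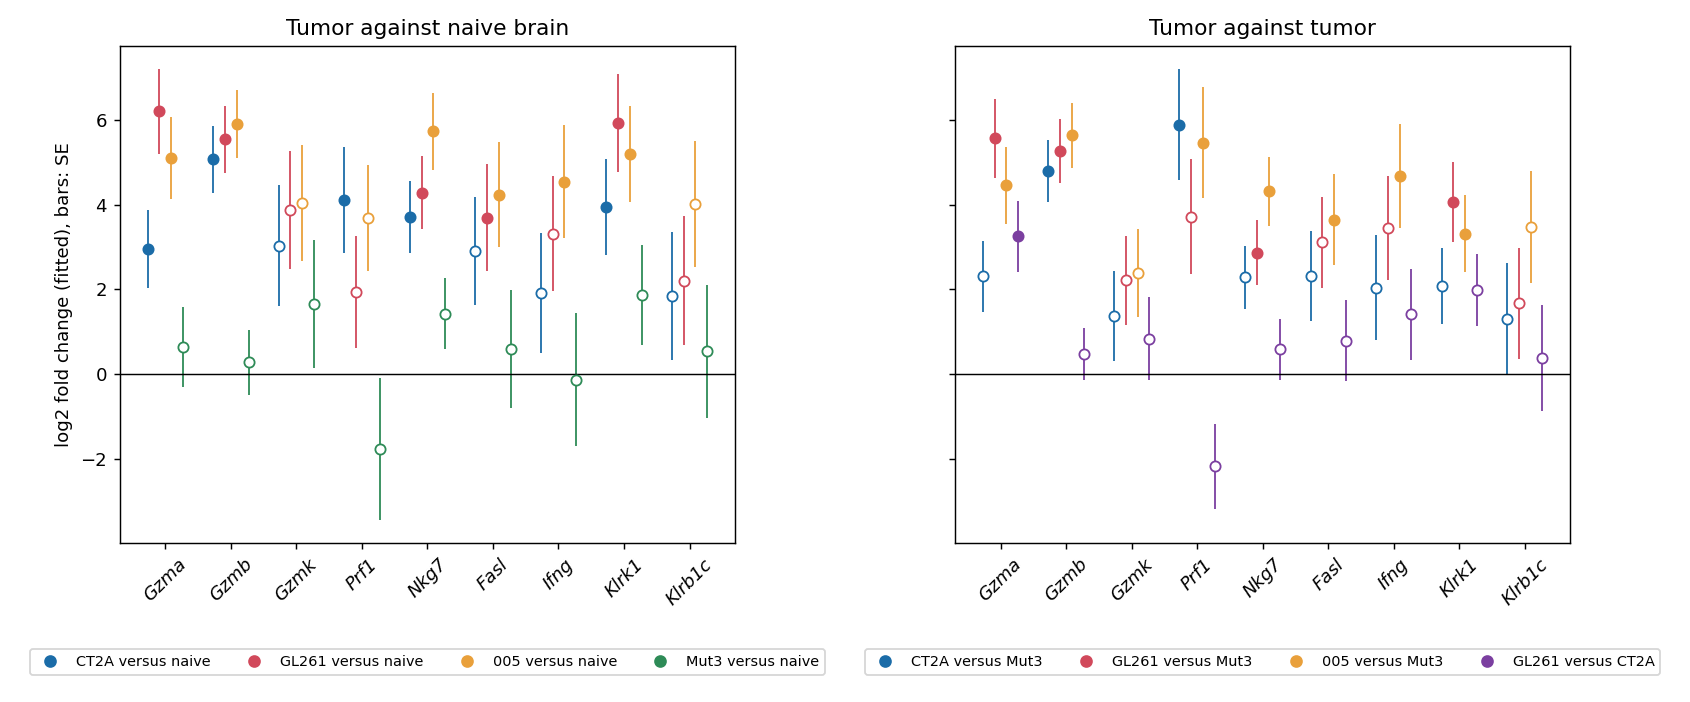
Fitted log2 fold changes of the 9 tested genes with SE bars, for tumors against naïve brain (left) and between tumors (right). Filled points were called at an adjusted p under 0.05 in edgeR and open points were not. All Mut3 points are open on the left, and Gzma is the only filled point of GL261 against CT2A on the right. Folds of Gzmk, Prf1, Ifng and Fasl rest on 1 or 2 counts in naïve brain and depend on the prior count.

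The death ligand and the cytokine were low throughout, and naïve brain held 2 counts of each. Fasl was at 0.407, 0 and 0 CPM in naïve brain, 0.487, 0.929 and 2.32 in CT2A and 2.07, 3.39 and 1.09 in GL261. It was at 1.03, 6.74 and 1.78 CPM in 005 and 0.335, 0 and 0.351 in Mut3. All CT2A, GL261 and 005 tumors were above naïve brain, and these tumor types overlapped. The ratio to naïve brain was 12.8 (95% interval 3.31 to 109) in GL261 and 18.1 (95% interval 4.87 to 152) in 005 by counting error. Both were called (adjusted p = 0.046 and 0.0374 in edgeR), but neither call was stable. In GL261 it was lost without naïve replicate 2 or 3, CT2A replicate 2, any GL261 tumor or Mut3 replicate 1 or 3 (adjusted p of up to 0.111). In 005 it was lost without any naïve brain, GL261 replicate 3, 005 replicate 2 or Mut3 replicate 1 (adjusted p of up to 0.187).

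Ifng was at 0, 0.249 and 0.27 CPM in naïve brain and 0, 0.377 and 0.0877 in Mut3. It was at 0.974, 0.31 and 0.644 CPM in CT2A, 3.1, 0.161 and 2.06 in GL261 and 1.23, 9.51 and 1.7 in 005. All 005 tumors were above all CT2A tumors and all naïve brains, whereas GL261 replicate 2 lay within the naïve range. Ifng was called in 005 over naïve brain, with 115 counts against 2 and a ratio of 22.6 (95% interval 6.13 to 189) by counting error (adjusted p = 0.0382 in edgeR). The call was lost without 005 replicate 2 (adjusted p = 0.214), and also without any naïve brain, CT2A replicate 3 or GL261 replicate 3. In GL261 the adjusted p was 0.0858.

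Klrk1 had a higher TPM than Klrb1c and Ncr1 in every CT2A, GL261 and 005 tumor, though not in every naïve brain and Mut3 tumor. In CPM it was at 0, 0.497 and 0.809 in naïve brain, 3.9, 6.19 and 9.53 in CT2A and 44.7, 8.54 and 24.2 in GL261. It was at 7.09, 32.3 and 6.96 CPM in 005 and 0.446, 0.502 and 3.51 in Mut3. Every CT2A, GL261 and 005 tumor lay above all naïve brains and all Mut3 tumors, and the highest single value was in GL261 replicate 1. Klrk1 rose over naïve brain in GL261 (log2 fold change 5.93, SE 1.15, adjusted p = 0.00297), 005 (log2 fold change 5.19, SE 1.13, adjusted p = 0.00843) and CT2A (log2 fold change 3.95, SE 1.13, adjusted p = 0.0135). The CT2A call was lost without naïve replicate 1 and with log2(TPM + 1) in limma (adjusted p of up to 0.175).

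Klrb1c was at 0, 0 and 1.08 CPM in naïve brain and 0.731, 2.63 and 0.387 in CT2A. It was at 2.48, 1.29 and 1.09 CPM in GL261, 1.85, 14.2 and 0.852 in 005 and 0, 1.26 and 0.263 in Mut3. Only 005 replicate 2 stood out, all other libraries were below 3 CPM, and 1 naïve brain was at the level of the lowest GL261 tumor. Klrb1c was also called in no comparison in edgeR over all libraries, with an adjusted p of 0.0882 for 005 against naïve brain. With no filter on low counts, and in the DESeq2 Wald test, it was called in 005 over naïve brain and over Mut3.

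Ncr1 was not detected in naïve brain (0 counts in the 3 libraries together, where 3 counts would be 0.237 CPM). It was at 0.853, 0.155 and 0 CPM in CT2A, 0.827, 0.161 and 0.363 in GL261, 0, 1.93 and 0.284 in 005 and 0, 0 and 0.175 in Mut3. In CT2A, Ncr1 was at 1.5 times the level of 3 counts over the naïve group, in GL261 at 1.75 and in 005 at 2.63. The lower ends of the counting intervals for the ratio to naïve brain were 0.9625, 1.118 and 1.944 in the same order. The interval in CT2A thus did not exclude equal levels. Ncr1 did not pass the filter, and with no filter the adjusted p was 0.221, 0.224 and 0.17 in these tumors. The counting intervals and the 3-count level cover counting error only.

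Most calls between tumors were against Mut3. In 005, 7 of the 10 genes were higher than in Mut3 (all tested except Gzmk and Klrb1c), where 14.4% of all genes were higher. In GL261, 4 were higher than in Mut3 (Gzma, Gzmb, Nkg7 and Klrk1), against 11.4% of all genes. In CT2A, 2 were higher than in Mut3 (Gzmb and Prf1), against 6.82%. For Gzmb the log2 fold change over Mut3 was 4.79 in CT2A (SE 0.74, adjusted p = 8.70e-04), 5.26 in GL261 (SE 0.75, adjusted p = 7.79e-04) and 5.63 in 005 (SE 0.76, adjusted p = 5.13e-04). The Gzmb calls over Mut3 held under all 7 alternatives and without each library in turn. With Mut3 replicate 1 left out, 2 genes were called over Mut3 in GL261 (Gzma and Gzmb) and 3 in 005 (Gzma, Gzmb and Nkg7). With 005 replicate 2 left out, 4 were called in 005 over Mut3 (Gzma, Gzmb, Prf1 and Nkg7) and 7 in GL261 over Mut3. In CT2A over Mut3, 4 were called without 005 replicate 1 or 2 or without Mut3 replicate 3. A fit of the 005 and Mut3 libraries alone called Gzmb only. Over all genes, that fit called 374 higher in 005 instead of 2512.

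The comparisons among CT2A, GL261 and 005 gave 1 call. Gzma was higher in GL261 than in CT2A (log2 fold change 3.25, SE 0.84, adjusted p = 0.0281), where 3.71% of all genes were higher and 4.26% lower. All GL261 tumors exceeded all CT2A tumors, but the call was lost when any CT2A tumor or GL261 replicate 1 or 3 was left out and with log2(TPM + 0.1) in limma, with an adjusted p of up to 0.112. For Gzmb the same difference was 0.48 with a 95% interval of −0.84 to 1.79. Between 005 and CT2A, 0 genes were called in edgeR and 0 in DESeq2, 3 had an unadjusted p under 0.05 (Gzma, Nkg7 and Ifng), and 2.02% of all genes were higher in 005. Between 005 and GL261, 0 were called in edgeR and 0 in DESeq2, 0 had an unadjusted p under 0.05, and 0.898% of all genes were higher in 005. The intervals were wide, such as −0.09 to 2.98 for Nkg7 and −2.76 to 0.54 for Gzma in 005 against GL261.

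The balance of Gzma and Gzmb lay on different sides in CT2A and GL261. In TPM, the ratio of Gzma to Gzmb was 0.389, 0.441 and 0.262 in the CT2A tumors and 2.44, 2.66 and 2.25 in the GL261 tumors. It was 0.321, 0.973 and 0.721 in 005, 1.26, 1.49 and 3.51 in Mut3 and 1.32, 1.34 and 2.05 in naïve brain. Gzmb exceeded Gzma in every CT2A and 005 tumor, and Gzma exceeded Gzmb in every GL261 and Mut3 tumor and every naïve brain, though Mut3 and naïve brain held little of both. The mean log2 ratio differed by −2.78 between CT2A and GL261, as CT2A minus GL261 (two-sided exact permutation test, p = 0.1, adjusted p = 0.15 over the 6 pairs of tumors), and 0.1 is the smallest p that 3 mice against 3 can give. This ratio was chosen after the levels had been seen. A ratio within a library does not depend on library scaling.

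The neighbours of Gzmb in its cluster showed a related pattern. Of the 7 other granzyme genes listed, 5 were tested (Gzmc, Gzmd, Gzme, Gzmf and Gzmg), which encode granzymes that activated mouse lymphocytes and some other cells make, while Gzmm and Gzmn did not pass the filter. All 5 rose in CT2A and in 005 over naïve brain and over Mut3, and 1 (Gzmc) rose in GL261 and 0 in Mut3 over naïve brain. Of all genes, 20.3% were called higher than naïve brain in CT2A, 11.8% in 005, 15.1% in GL261 and 19.3% in Mut3. The 1 in GL261 is near that share. Over Mut3, 6.82% of all genes were higher in CT2A and 14.4% in 005. The median log2 fold change of the 5 over naïve brain was 6.61 in 005, 6.38 in CT2A and 3.20 in GL261. Gzmd was at 0, 0.745 and 0.539 CPM in naïve brain, 90.1, 71.7 and 58.8 in CT2A and 6, 2.74 and 4.84 in GL261. It was at 1.23, 210.2 and 12 in 005 and 1.23, 0.753 and 1.14 CPM in Mut3. CT2A was even across mice, while the 005 level rested on replicate 2, and 005 replicate 1 was at the level of Mut3. Gzmf had the same layout, at 119.6, 78.5 and 56 CPM in CT2A, 19, 3.71 and 10.04 in GL261 and 0.925, 341 and 23.2 in 005. Leaving out 005 replicate 2, 3 of the 5 were called in 005 over naïve brain and 4 over Mut3. GL261 was below CT2A for all 5, by a median log2 fold change of −3.18, and Gzme passed the test (log2 fold change −4.36, adjusted p = 0.0446). These genes are near copies of one another, with 14.8% to 42.1% of their 31-base stretches shared, so the split of reads among them is uncertain. Markers of mast cells, which can carry granzymes, were also highest in 005 replicate 2. Summed over 5 genes they were at 6.99, 114 and 8.45 CPM in 005, 7.31, 11 and 10.7 in CT2A, 0.645 to 3.93 in GL261 and 0 to 1.08 in naïve brain and Mut3. Their part in the granzyme levels was not tested.

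**Figure D3:**
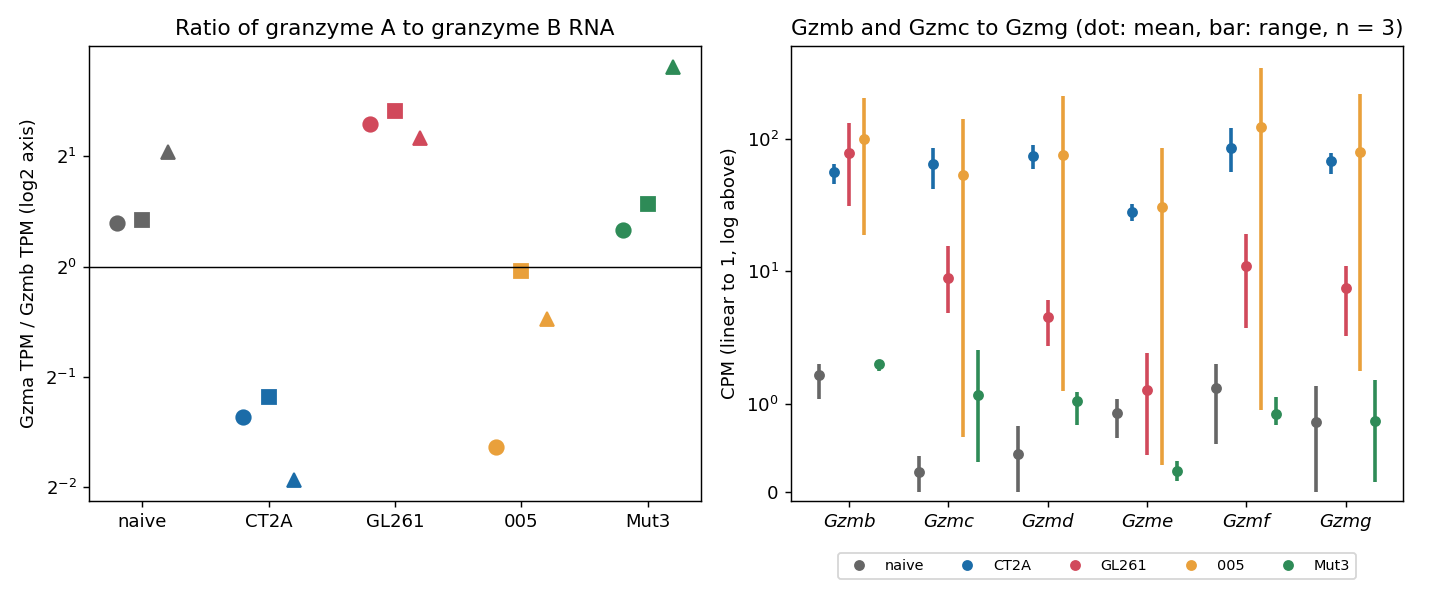
Left, the ratio of Gzma to Gzmb in TPM in each library (circle, square and triangle for replicates 1, 2 and 3) on a log2 axis, below 1 in all CT2A and 005 tumors and above 1 in all GL261 tumors. Right, CPM of Gzmb and its neighbours Gzmc to Gzmg, with a dot at the group mean and a bar over the range of the 3 mice, on an axis that is linear up to 1 and logarithmic above.

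The effector RNA moved with that of T cell markers, and most of the 5 monocyte and macrophage markers also rose in CT2A, GL261 and 005. Summed over the 10 genes, TPM was 3.47, 4.38 and 3.01 in naïve brain, 27.7, 22.1 and 29.7 in CT2A and 91.8, 38.7 and 77.6 in GL261. The sum was 24.9, 221 and 89.1 in 005 and 1.73, 2.61 and 9.01 in Mut3. Divided by the sum over 12 T cell markers, it was 1.12, 0.575 and 0.657 in CT2A, 0.64, 0.53 and 0.604 in GL261 and 0.367, 0.522 and 0.411 in 005. In Mut3 the quotient was 0.237, 0.354 and 0.504 and in naïve brain 0.676, 0.337 and 0.234. The sums ran from 1.73 to 221 TPM, and the quotient from 0.234 to 1.12. All 3 CT2A tumors had a higher quotient than all 005 and all Mut3 tumors, while naïve brain overlapped with each tumor type. Of the T cell markers, 11 were tested, and over naïve brain 9 rose in 005, 8 in GL261, 6 in CT2A and 0 in Mut3 (median log2 fold change 4.71, 3.43, 2.64 and 0.87). The shares of all genes called higher were 11.8%, 15.1%, 20.3% and 19.3% in the same order. Leaving out 005 replicate 2 left 6 in 005. Cd4, which some myeloid cells also express, fell in CT2A and Mut3, where naïve brain held 1.22, 26.3 and 4.59 CPM. Cd8a, the CD8 coreceptor, was at 0.407, 0.249 and 0.27 CPM in naïve brain, 3.29, 6.66 and 8.12 in CT2A, 8.89, 12.7 and 15 in GL261, 6.37, 45.9 and 11.1 in 005 and 0.67, 0.879 and 2.72 in Mut3. The part of T cell number in the effector levels was not tested.

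**Figure D4:**
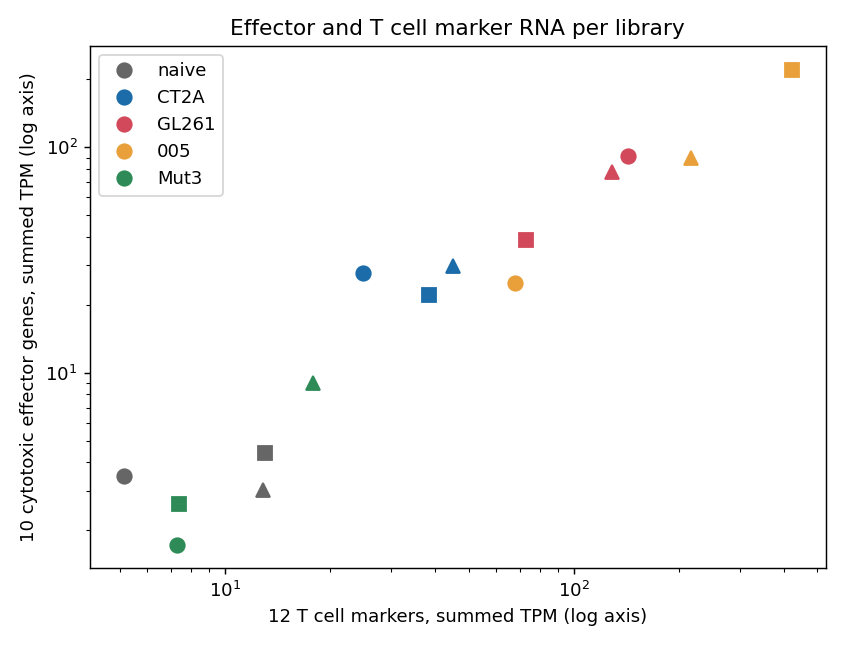
Summed TPM of the 10 cytotoxic genes against summed TPM of 12 T cell markers in each library, both on log axes (circle, square and triangle for replicates 1, 2 and 3). The libraries lie along a rising band from naïve brain and Mut3 through CT2A and GL261 to 005 replicate 2.

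The summed level of NK cell markers was carried by Klra4 in CT2A. Summed over 8 NK markers, CPM was 90.1, 116 and 58.2 in CT2A, 20.7, 15 and 27.2 in GL261, 57.8, 82 and 20.7 in 005, 4.46, 4.27 and 8.51 in Mut3 and 6.71, 3.48 and 14 in naïve brain. CT2A was above GL261, and this rested on Klra4, a Ly49 receptor of NK cells. Without Klra4 the sum was 18.9, 19.97 and 13.3 CPM in CT2A, 18.8, 12.7 and 22 in GL261 and 14.8, 72.3 and 17 in 005, and CT2A and GL261 overlapped. Klra4 itself was at 71.3, 96 and 45 CPM in CT2A, 1.86, 2.26 and 5.2 in GL261 and 43.1, 9.75 and 3.69 in 005. Klra4 was lower in GL261 than in CT2A (log2 fold change −4.47, adjusted p = 0.00497), and 17.5% of its 31-base stretches were shared with Klra1, Gm15854 and Klra13-ps. Of the 6 NK markers tested, 4 rose in 005, 3 in GL261, 3 in CT2A and 0 in Mut3 over naïve brain (median log2 fold change 3.44, 2.74, 2.46 and 0.23). Over all genes, 11.8%, 15.1%, 20.3% and 19.3% were called higher in the same order. With 005 replicate 2 left out, 3 of the NK markers were called in 005. The NK-restricted Ncr1 stayed below 2 CPM in every library and Klra9 was at 0 in naïve brain and Mut3. The NK list shares Eomes and Il2rb with the regulators below.

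Most of the tested receptors and adaptors of NK cells beside NKG2D rose in the same tumors. Of 14 listed genes, 11 were tested, and over naïve brain 10 rose in 005, 10 in GL261, 9 in CT2A and 1 (Slamf7) in Mut3 (median log2 fold change 4.79, 4.00, 3.37 and 0.71). Of all genes, 11.8%, 15.1%, 20.3% and 19.3% were called higher in the same order. The 1 in Mut3 is not read as a result about the list. With 005 replicate 2 left out, 8 were called in 005. Klrd1, which encodes CD94, was at 0.814, 0.497 and 0.27 CPM in naïve brain, 8.77, 5.73 and 3.09 in CT2A, 9.51, 10.6 and 11.1 in GL261, 8.53, 44.7 and 11.1 in 005 and 0.446, 0.502 and 1.67 in Mut3. Tyrobp, Fcer1g and Fcgr3 of this list are also expressed by microglia and macrophages, whose 5 monocyte and macrophage markers summed to 151 to 174 CPM in naïve brain, 701 to 1100 in CT2A, 850.2 to 1976 in GL261, 1506 to 10440 in 005 and 222 to 901 in Mut3.

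Of 5 tested genes for ligands of NKG2D and NKR-P1 receptors, 4 rose in 005, 3 in GL261, 3 in CT2A and 2 (Raet1d and Ulbp1) in Mut3 over naïve brain, where 11.8%, 15.1%, 20.3% and 19.3% of all genes were higher. With 5 genes, the 2 in Mut3 are not read as a result about the list. With 005 replicate 1 or 2 left out, 3 were called in 005 (Raet1d, Raet1e and Ulbp1), and H60b was lost. Raet1d, a RAE-1 family ligand, was at 0, 0 and 0.539 CPM in naïve brain, 4.75, 9.29 and 7.6 in CT2A and 46.9, 23.5 and 22.4 in GL261. It was at 29.6, 28.7 and 0.923 CPM in 005 and 5.13, 4.27 and 9.39 in Mut3, where it passed the test as well (adjusted p = 0.00651 in edgeR). All Mut3 tumors were above all naïve brains for Raet1d, while Klrk1, the receptor gene, overlapped with naïve brain there. Ulbp1 was at 0 in all naïve brains and at 0.781, 0.879 and 1.05 CPM in Mut3. In 005 replicate 3, which had the most neuron marker RNA of the tumors, Raet1d was at 0.923 and Ulbp1 at 0.497 CPM. Family members that are near copies may share reads.

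Of 11 tested genes of the interferon gamma receptor and its response, 7 rose in 005, 7 in GL261, 6 in CT2A and 4 in Mut3 (median log2 fold change 3.65, 4.25, 2.32 and 1.49), where 11.8%, 15.1%, 20.3% and 19.3% of all genes were higher than in naïve brain. In Mut3 the receptor subunit gene Ifngr2 and the kinase gene Jak1 fell, a share of the list close to the 21% of all genes that were lower there. When 005 replicate 2 was left out, 4 were called in 005. Gbp2, an interferon-induced GTPase, was at 17.3, 19.4 and 17.8 CPM in naïve brain, 236, 229 and 254 in CT2A, 1535, 740.1 and 927 in GL261, 470.2, 2457 and 157 in 005 and 24.8, 61.1 and 154 in Mut3. Cxcl9, a chemokine that draws T cells, was at 0.61, 1.24 and 4.05 CPM in naïve brain, 35.8, 36.1 and 48.4 in CT2A, 167, 50.3 and 149 in GL261, 174, 2699 and 101 in 005 and 6.58, 8.66 and 42.5 in Mut3. Both were above all naïve brains in all 12 tumors. Many of these genes also answer to type I interferons.

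Genes for the release of granules, for the death of the target cell and for the regulation of cytotoxic cells made up 3 further lists. Their counts stand beside all-gene shares called higher of 11.8% in 005, 15.1% in GL261, 20.3% in CT2A and 19.3% in Mut3, and several are near those shares. Of 9 tested genes for packing and release of granules, 3 rose in 005, 3 in CT2A, 3 in GL261, where Unc13d fell, and 1 (Unc13d) in Mut3, where 3 fell and 21% of all genes were called lower. Leaving out 005 replicate 2 left 2 in 005 (Srgn and Ctsc). The median log2 fold change was 0.83 in 005, 0.60 in GL261, 0.15 in CT2A and −0.09 in Mut3. Srgn, the proteoglycan core of granules, and Ctsc, the protease that activates granzymes, rose in CT2A, GL261 and 005, and both are also made by myeloid cells. Serpinb9, which inhibits granzyme B, fell in Mut3 (log2 fold change −1.58, adjusted p = 0.0232). Of 9 genes of the death pathway in the target cell, 4 rose in 005, 3 in GL261, 4 in CT2A and 3 in Mut3. In 005, 0 were called without replicate 2, 1 (Tnfsf10) without replicate 1 and 6 without replicate 3. Casp8 was among those that rose in CT2A, GL261 and 005 (log2 fold change 3.88, adjusted p = 0.00384 in CT2A). The median log2 fold change of the list was 1.46 in 005, 1.10 in GL261, 0.62 in CT2A and 1.26 in Mut3. Of 13 tested regulators of cytotoxic lymphocytes, 5 rose in 005, 4 in GL261, 4 in CT2A and 2 in Mut3, and Id2 fell in CT2A and Mut3. The median log2 fold change was 1.68 in 005, 1.71 in GL261, 1.33 in CT2A and −0.02 in Mut3. Il12rb1, a subunit of the interleukin 12 receptor, was higher in GL261 than in naïve brain (adjusted p = 0.00356) and than in CT2A (log2 fold change 3.00, adjusted p = 0.0445). Among these regulators 0 were called in 005 with replicate 2 left out.

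Over the 15 libraries, the 9 tested genes correlated with each other in log2 CPM with Pearson's r from 0.498 (Prf1 with Klrb1c) to 0.93 (Nkg7 with Klrk1). Gzma correlated at 0.898 with Gzmb and at 0.536 with Prf1. The genes whose log2 CPM was most like the mean of the 9 were Rac2 (r = 0.981), Ly6c2, AW112010, Cd52, Trac, Cfb, Cd48 and Gmfg. Ly6c2 (r = 0.977) is one of the monocyte and macrophage markers used above. Trac (r = 0.969) encodes the constant part of the T cell receptor alpha chain, and Rac2, Cd52 and Cd48 are expressed broadly in leukocytes. Over the 12 tumor libraries alone they were Skap1 (r = 0.98), Unc93b1, Rac2, Gmfg, Serpinb9, Ido1, Sh3bgrl3 and Ncf1. These r describe libraries that share their groups and depths.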

How the data were processed

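Whole tissue RNA of 15 mice was sequenced. Per the labels, the authors aligned the reads with STAR 2.4.2a to the GENCODE mouse genome (mm10), and their processing notes also name Salmon and DESeq2 1.18.1. They deposited estimated counts per gene, which need not be whole, and TPM values. In 4644 genes with over 50 counts in every library, the ratio of estimated count to TPM was a factor per gene times a factor per library, so both hold 1 measurement.

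A gene symbol from GENCODE release M21 was found for 46201 of the 46679 identifiers, and shared sequence was counted on its transcripts. The estimated counts were rounded and tested with edgeR 4.0.16 in R 4.3.3 (filterByExpr, TMM, quasi-likelihood F test, 1 mean per group over all libraries, no covariate), with Benjamini-Hochberg adjustment over 17481 genes in each of 10 comparisons. Members and gene lists were chosen with earlier results of these data known. List genes were named by smallest adjusted p against naïve brain or because a result turned on them, and Gzme, Serpinb9, Unc13d, Cd4, Ifngr2, Jak1, Klra9 and Cd3e were chosen after their values were seen. The alternatives were DESeq2 size factors, no filter, the DESeq2 1.42.0 Wald test, a fit of the groups compared alone, a replicate block, limma 3.58.1 on log2(TPM + 1) or log2(TPM + 0.1), and each library left out. No pair of libraries agreed within sampling noise. Depth was 3105119 to 13130158 estimated counts per library. Counting intervals are exact binomial ones at 95%.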

Additional observations from a re-analysis of the deposited data

Results flagged for a closer look

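The difference from naïve brain differed between tumor types for several of the 10 genes, by edgeR's test of tumor against tumor in the fit over all libraries. It differed between 005 and Mut3 for 7 genes (Gzma, Gzmb, Prf1, Nkg7, Ifng, Klrk1 and Fasl), between GL261 and Mut3 for 4 (Gzma, Gzmb, Nkg7 and Klrk1), between CT2A and Mut3 for 2 (Gzmb and Prf1) and between GL261 and CT2A for 1 (Gzma). In each case the gene was higher in the tumor type named first. Over all genes, 14.4%, 11.4%, 6.82% and 3.71% were called higher in the same order of comparisons. These are the same tests between tumors as given above. The Gzma call of GL261 over CT2A was lost when any CT2A tumor or GL261 replicate 1 or 3 was left out. Groups of 3 mice are too small for a test of single outlying libraries.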

How the results depend on the processing

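Of the 30 calls of a gene in a comparison, 15 held under all 7 alternatives, 17 without each library in turn and 12 under both, and none changed sign. The number of genes called was as follows, where a setting moved it by over 1.5 times or a library was left out. In CT2A over naïve brain, where 5 were called, limma on log2(TPM + 1) called 3, and leaving out single libraries gave 3 to 5. In GL261 over naïve brain, with 5 called, the range was 4 to 6, and other settings called 5 or 6. In 005 over naïve brain, with 6 called, a fit of these groups alone called 2, and leaving out libraries gave 4 to 8. In GL261 over CT2A, with 1 called, limma on log2(TPM + 0.1) called 0, and the range was 0 to 1. For 005 against CT2A, with 0 called, the range was 0 to 1, the 1 being Gzma without 005 replicate 1. In CT2A over Mut3, with 2 called, no filter and DESeq2 each called 4, and the range was 2 to 4, with 4 without 005 replicate 1 or 2 or Mut3 replicate 3. In GL261 over Mut3, with 4 called, the range was 2 to 7, and DESeq2 called 6 and a fit of these groups alone 5. In 005 over Mut3, with 7 called, a fit of these groups alone called 1, limma on log2(TPM + 1) called 3, and the range was 3 to 8. The cause of these shifts was not tested.

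The replicate numbers did not pair the samples. Deviations of same-numbered libraries correlated from −0.33 to 0.26, with 1 of 30 pairs above 0.1, and 3 of 15 libraries correlated best with their own number. With the number as a replicate block, 4 genes were called in 005 over naïve brain and 6 in 005 over Mut3, and the other counts were those of the fit without it. Over all genes, the call counts of 005 over naïve brain moved from 2055 higher and 198 lower to 219 and 3 in a fit of these groups alone. Those of 005 over Mut3 moved from 2512 higher and 1102 lower to 374 and 272 in a fit of 005 and Mut3 alone. In limma on log2(TPM + 0.1), which changes both scale and test, the median of all genes in CT2A against naïve brain was −0.77 instead of −0.04, and the split 1941 higher and 7186 lower instead of 3548 and 3786. With 1 to 4 counts in naïve brain, differences of Gzmk, Prf1, Fasl, Ifng, Klrk1 and Klrb1c are limited by depth.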

Other observations

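Across the 5 groups, the transcription factor genes Tbx21 and Eomes, which direct cytotoxic lymphocytes, did not follow the effector genes. Both had their highest value in naïve replicate 3. Eomes was at 0, 1.24 and 12.1 CPM in naïve brain, 2.31, 0 and 0.902 in CT2A, 1.03, 0.161 and 0.605 in GL261, 1.03, 4.58 and 2.49 in 005 and 0.223, 0.377 and 0.439 in Mut3, and its highest value was in a naïve brain. Tbx21 was at 0, 1.74 and 4.05 CPM in naïve brain, 0, 0 and 0.387 in CT2A and 0.207, 0 and 0.242 in GL261. It was at 0.514, 2.65 and 0.852 CPM in 005 and 0, 1.26 and 0 in Mut3. Among the tumors alone, both genes were highest in 005 replicate 2, where the summed TPM of the 10 cytotoxic genes was also highest. Both genes are also expressed by some neurons. Neither was called in any of the 10 comparisons in edgeR.

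Cd3e was at no more than 3.97 CPM in any library, with its highest value in 005 replicate 2, where Cd3g was also highest at 141 CPM. CPM do not account for transcript length, so the levels of Cd3e and Cd3g are not compared here. B cell markers summed to at most 18.3 CPM, and gamma-delta T cell markers to at most 9.51 CPM, both in 005 replicate 2. Of 4 markers of plasmacytoid dendritic cells, Bst2, which interferons also induce, rose in each of the 4 tumor types and stood at 291, 141 and 196 CPM in GL261, while Pacsin1 fell in CT2A and Mut3 and Siglech in Mut3. Neutrophil markers summed to 34.2 to 61.6 CPM in 005, 27 to 54.3 in Mut3, 22.6 to 36 in CT2A, 13.4 to 19.4 in GL261 and 11.4 to 18.9 in naïve brain. The sums in Mut3 and CT2A were mostly Cxcr2. Cxcr2 was at 25.1, 46.8 and 24.5 CPM in Mut3, 22.1, 16.7 and 25 in CT2A and 10.8, 8.2 and 15.6 in naïve brain. Of the other neutrophil markers, S100a8 and Retnlg rose over naïve brain in 005 and Retnlg in GL261, but none rose in Mut3 or CT2A.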
